A study of Homo sapiens with 12 samples.

Results

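The genes described here were YAP1 and WWTR1 (the gene of TAZ), the coactivators at the end of the Hippo pathway, and 8 genes listed with them as their targets and partners: CYR61, CTGF, ANKRD1, AXL, LATS2, AJUBA, AMOTL1 and AMOTL2. They were taken by symbol from a table of 58735 genes, and all 10 were found once. All 10 also reached 1 FPKM in at least 3 libraries, as did 11856 genes of the table, and were tested. RNA came from HepaRG, a human hepatic cell line labelled as wild type, in 12 libraries, 3 per group, in a series titled for lipid changes in liver fibrosis. The PA+BMS cells were kept for 24 h with 50 µM BMS-309403, a compound that blocks FABP4, a carrier of fatty acids, and for 4 h with 400 µM deuterium-labelled palmitate (PA), which is saturated. The PA+OA cells had 400 µM PA with 200 µM oleic acid (OA), which has a single double bond, for 4 h, and the PA cells had 400 µM PA alone for 4 h. Control cells were untreated, no group had OA or BMS-309403 without PA, and the labels name no vehicle and no state of differentiation.

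In the Hippo pathway, the LATS kinases phosphorylate YAP and TAZ, which then stay in the cytoplasm or are degraded. Unphosphorylated YAP and TAZ enter the nucleus and act there with the TEAD factors, which carry the DNA-binding domain. Their best known targets include CYR61 and CTGF, secreted matrix-associated proteins of the CCN family that are studied in liver for their part in fibrosis and repair, and several targets, among them LATS2 and AMOTL2, feed back on the pathway. These libraries measured messenger RNA only. The phosphorylation, location and amount of the YAP and TAZ proteins were not measured in the files used here.

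The promoter windows of 3 target genes are printed because they show the letters that TEAD factors are known to favour. Windows ran from 250 bases before to 50 bases after the annotated start, were taken from RefSeq on GRCh38.p14, and are written 5′ to 3′ on the strand of the gene. Capitals mark each GGAATG and its reverse complement CATTCC, searched on both strands with no other motif.
CTGF (entry CCN2), chr6:131951323-131951622, minus strand: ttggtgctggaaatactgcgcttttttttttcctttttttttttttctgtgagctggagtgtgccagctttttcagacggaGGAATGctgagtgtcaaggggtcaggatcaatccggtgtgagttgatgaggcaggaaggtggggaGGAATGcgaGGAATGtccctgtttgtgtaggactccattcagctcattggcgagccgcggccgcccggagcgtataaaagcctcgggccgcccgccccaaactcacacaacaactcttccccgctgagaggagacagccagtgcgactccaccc
ANKRD1, chr10:90921038-90921337, minus strand: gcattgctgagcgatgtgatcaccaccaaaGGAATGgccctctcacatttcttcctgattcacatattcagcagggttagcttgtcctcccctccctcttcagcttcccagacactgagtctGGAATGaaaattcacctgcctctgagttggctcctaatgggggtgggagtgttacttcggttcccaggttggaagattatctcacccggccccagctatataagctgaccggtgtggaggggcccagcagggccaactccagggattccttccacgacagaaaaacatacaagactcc
AMOTL2, downstream of its 2 listed starts, chr3:134374398-134374697, minus strand: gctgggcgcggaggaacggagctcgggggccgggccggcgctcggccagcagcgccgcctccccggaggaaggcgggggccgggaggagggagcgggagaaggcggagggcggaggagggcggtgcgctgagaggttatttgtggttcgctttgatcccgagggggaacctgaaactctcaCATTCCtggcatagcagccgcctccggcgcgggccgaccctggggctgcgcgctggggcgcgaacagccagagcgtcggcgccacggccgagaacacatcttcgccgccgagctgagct
The CTGF window held 3 such words, whose first bases lay at -169, -104 and -95 from the start, and the last 2 of them stood 3 bases apart. The ANKRD1 window held 2, at -220 and -128, and the AMOTL2 window held 1, at -69. Of 35116 windows in the RefSeq table, 14.0% held at least 1 word, 1.37% at least 2 and 0.128% at least 3. The other windows with a word belonged to YAP1 (at -162), LATS2 (at 10), AJUBA (at -59, in the second of its 2 windows) and AXL (at -212, in the second of its 2 windows). In all, 9 of the 10 genes had 13 windows, of which 7 held a word, and CYR61 (entry CCN1) was not matched. A match is a string of letters and not a measured site of binding.

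The whole reads behind the FPKM summed to between 16059128 and 19971190 per library. The first principal component of the tested genes held 54.4% of the variance, and its loadings followed the GC content of the genes (Spearman correlation 0.683 across genes, which are not independent). All PA and PA+OA libraries scored 10.6 to 54.6 on it, and all PA+BMS and control libraries scored -51.5 to -5.70. The component thus ran with the groups. Removing a trend with GC content may therefore also remove differences between groups, which was not tested. PA+BMS replicate 3, at -51.5, and PA+OA replicate 1, at 54.6, lay farthest out on the component. Results that rest on them are given with and without them, and a fit from which the dependence on GC content and gene length was removed in each library is given where it changes a result (GC and length trend removed). Of 7 hepatocyte markers, none reached 1 FPKM in any library and 2 of them, ALB and FABP1, had no read. Of 4 bile duct and progenitor markers only KRT7 did, and the list's summed level, nearly all KRT7, was 140 to 185 FPKM in PA+BMS, 520 to 917 in PA+OA, 571 to 669 in PA and 477 to 564 in control. Of 5 stellate cell and fibroblast markers 3 did, with sums of 12.1 to 13.2 FPKM in PA+BMS, 14.8 to 17.2 in PA+OA, 16.6 to 17.8 in PA and 14.9 to 16.03 in control, and LRAT was at 0. Of 3 endothelial and 3 macrophage and blood markers 1 each did, CDH5 and CSF1R. The endothelial sum was 0.343 to 0.459 FPKM in PA+BMS, 0.287 to 0.454 in PA+OA, 1.06 to 1.35 in PA and 1.36 to 1.82 in control, and the macrophage and blood sum was 0.539 to 0.607 in PA+BMS, 1.77 to 1.91 in PA+OA, 1.63 to 2.10 in PA and 1.51 to 2.20 in control. The part of these markers in the results was not tested, and in bulk RNA fewer cells of a type and less RNA per cell cannot be told apart.

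CYR61 and CTGF, the genes of 2 secreted CCN proteins, were higher in cells given palmitate, and CTGF was higher again where oleate was added. Against control, 4 of the 10 genes passed the test in PA cells (limma, Benjamini-Hochberg adjusted p under 0.05), of which CYR61, CTGF and AMOTL2 were higher and YAP1 was lower, beside 27.6% of all genes tested. With oleate added, in PA+OA against PA, 1 of 10 passed, CTGF, which was higher, beside 7.91% of all genes. Given BMS-309403, in PA+BMS against PA, YAP1 and WWTR1 passed, both higher, 2 of 10 beside 54.5% of all genes. Of the 10, 5 passed in PA+OA against control beside 36.3% of all genes; in PA+BMS against control, 2 of 10 beside 11.0%; and in PA+BMS against PA+OA, 3 of 10 beside 49.6%. The comparisons share groups and are not independent of each other. Whether the replicates were separate cultures is not labelled, so these p-values measure only the spread between these libraries, which may be technical. With no filter on low values, which put 30696 genes under test, 6 calls were lost: AMOTL2 and YAP1 in PA against control, YAP1 and WWTR1 in PA+BMS against PA, AMOTL2 in PA+OA against control and AMOTL1 in PA+BMS against PA+OA (adjusted p of 0.0517 to 0.0886).

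The same counts were taken in 3 other fits. Once the GC and length trend was removed, 5 of the 10 genes were called in PA against control beside 16.4% of all genes, 1 in PA+OA against PA beside 13.4%, and none in PA+BMS against PA beside 23.2%. That fit called 5 in PA+OA against control beside 38.3%, 3 in PA+BMS against control beside 19.2% and 3 in PA+BMS against PA+OA beside 33.9%, and 3 genes had an unadjusted p under 0.05 where it called none. By limma voom on the recovered reads, 3 were called in PA against control beside 28.9%, 1 in PA+OA against PA beside 6.77%, 5 in PA+BMS against PA beside 49.8%, 4 in PA+OA against control beside 37.1%, 2 in PA+BMS against control beside 10.5% and 4 in PA+BMS against PA+OA beside 50.6%. With PA+OA replicate 1 and PA+BMS replicate 3 left out, 5 were called in PA against control beside 57.6%, 2 in PA+OA against PA beside 25.7%, 4 in PA+BMS against PA beside 56.1%, 6 in PA+OA against control beside 39.7%, 3 in PA+BMS against control beside 18.5% and 2 in PA+BMS against PA+OA beside 21.7%. Called in all of these were CYR61, CTGF and YAP1 in PA against control, and CYR61, CTGF, YAP1 and AMOTL1 in PA+OA against control. So were CTGF in PA+OA against PA, CYR61 and CTGF in PA+BMS against control, and CTGF and YAP1 in PA+BMS against PA+OA. Several of these calls were lost without 1 library or under other settings, as given below.

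**Figure D1:**
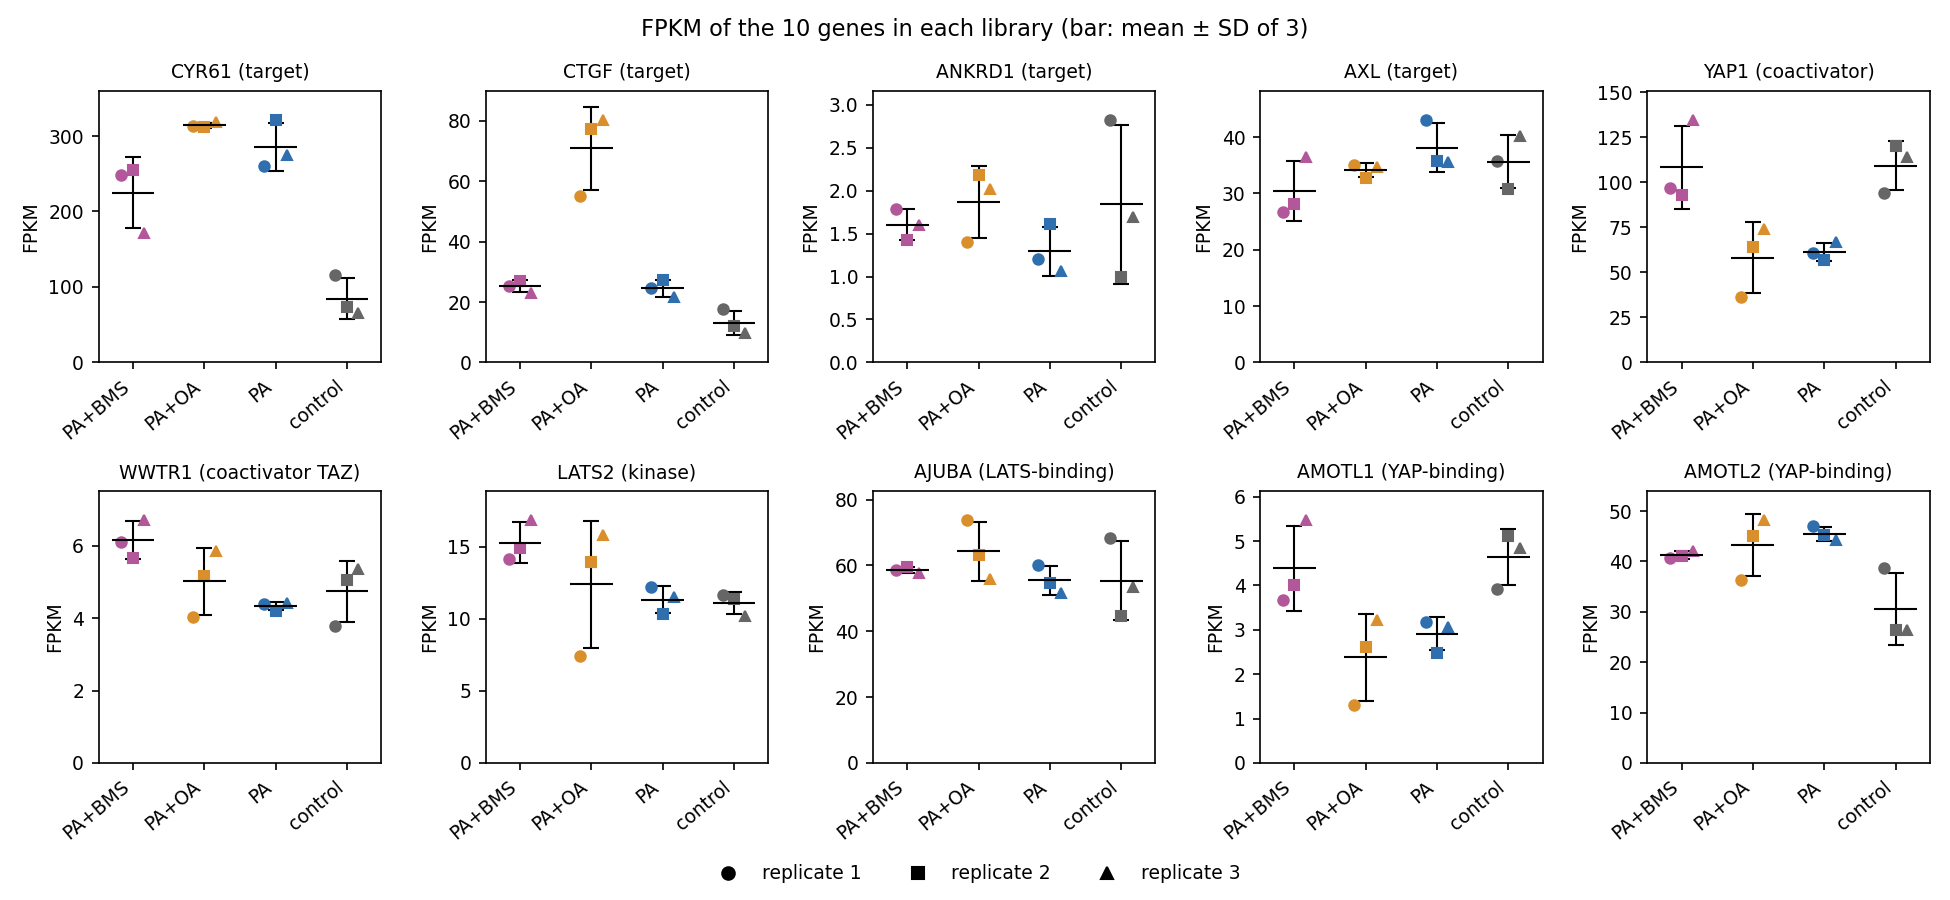
FPKM (vertical axes, each from 0) of the 10 genes in each library of the 4 groups. Symbols are replicates, long bars are means and whiskers 1 SD of 3 libraries. CYR61 lay above control in all 9 libraries given palmitate, CTGF was highest in the 3 PA+OA libraries, and YAP1 was lowest in PA+OA and PA.

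CYR61 encodes the secreted CCN-family protein also called CCN1 (ENSG00000142871, GRCh38 chromosome 1, 85580761 to 85583962, plus strand). It had 248, 255 and 171 FPKM in PA+BMS, 313, 312 and 318 FPKM in PA+OA, 260, 322 and 275 FPKM in PA and 115, 73.4 and 65.2 FPKM in control, each in the order of replicates 1, 2 and 3. Each library given palmitate was above each control library, and within control replicate 1 was the highest. The group means were 225 ± 46.9 FPKM in PA+BMS, 314 ± 3.40 in PA+OA, 286 ± 32.2 in PA and 84.6 ± 26.9 in control (SD, n = 3 each). On the log2(FPKM + 1) scale the rise in PA against control was 1.78 (SE 0.21, adjusted p = 0.00053), a 3.37-fold ratio of the means, and it ranked 21 among 11856 genes ordered by their rise. In PA+OA against control CYR61 rose by 1.92 (adjusted p = 6.10e-05), and in PA+BMS against control by 1.42 (adjusted p = 0.00137). These 3 calls held without any 1 of the 12 libraries and under all 11 other settings. Without control replicate 1 the rise in PA against control was 2.02.

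Neither addition to palmitate gave a called change of CYR61. The difference in PA+OA against PA was 0.14, with a 95% interval of -0.31 to 0.60 (adjusted p = 0.792), and the PA libraries spanned the PA+OA values. With BMS-309403 the difference from PA was -0.36, with an interval of -0.82 to 0.10 (adjusted p = 0.158). All 3 PA+BMS libraries were below all 3 PA libraries, but the nearest values, 255 and 260 FPKM, were close. That difference turned to 0.23 with quantile normalization (adjusted p = 0.299) and to 0.02 when library totals were set equal, a scaling that moved the median of all genes to 0.24 in this comparison. Between PA+BMS and PA+OA it was -0.50 (adjusted p = 0.0632), and with quantile normalization 0.11 (adjusted p = 0.612).

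CTGF encodes connective tissue growth factor, also called CCN2, a secreted protein widely used as a readout of YAP and of fibrosis (ENSG00000118523, chromosome 6, 131948176 to 131951373, minus strand). Its promoter window is the one with 3 TEAD-type words. It had 25.4, 27.0 and 23.1 FPKM in PA+BMS, 55.2, 77.3 and 80.5 FPKM in PA+OA, 24.7, 27.4 and 21.6 FPKM in PA and 17.6, 11.9 and 9.62 FPKM in control. PA+OA stood above the other groups in every library, PA+BMS and PA overlapped fully, and both lay above control. The means were 25.2 ± 1.95 FPKM in PA+BMS, 71.0 ± 13.7 in PA+OA, 24.5 ± 2.89 in PA and 13.1 ± 4.11 in control (SD, n = 3 each).

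CTGF was higher in PA+OA than in PA by 1.48 on the log2 scale (SE 0.20, adjusted p = 0.00108), or 2.89-fold by means. PA+OA cells had 200 µM OA on top of the same 400 µM PA, so the kind and the total amount of fatty acid cannot be told apart. CTGF ranked 41 of 11856 genes by rise in that comparison. The call held without any 1 of the 12 libraries, with changes of 1.38 to 1.65, and under all 11 other settings. CTGF also rose in PA+OA against control by 2.38 (adjusted p = 9.80e-06), 5.44-fold by means, and fell in PA+BMS against PA+OA by 1.44 (adjusted p = 0.000639); both calls held in all the same fits. No call was made in PA+BMS against PA, where the difference was 0.04, with a 95% interval of -0.39 to 0.47 (adjusted p = 0.872).

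The rise of CTGF in PA against control was smaller, 0.89 (SE 0.20, adjusted p = 0.0107), or 1.88-fold by means. It missed the threshold without PA replicate 2, control replicate 2 or control replicate 3, at adjusted p of 0.0506 to 0.0517, and with library totals set equal, where it was 0.63 (adjusted p = 0.0645) beside a median of all genes of -0.18. CTGF also rose in PA+BMS against control, by 0.93 (adjusted p = 0.0113), and this call was lost without control replicate 3 (0.75, adjusted p = 0.0529).

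Because both genes are CCN-family targets of YAP, their ratio was followed within each library. The CTGF to CYR61 ratio of FPKM was 0.102, 0.106 and 0.135 in PA+BMS, 0.176, 0.248 and 0.253 in PA+OA, 0.0948, 0.0850 and 0.0785 in PA and 0.153, 0.163 and 0.148 in control. No 2 groups overlapped, with PA lowest, PA+BMS next, then control, and PA+OA highest. The ratio differed by -0.84 on the log2 scale in PA against control and by 1.38 in PA+OA against PA. With 3 libraries against 3, each of the 6 exact two-sided permutation tests gave p = 0.1, the smallest this design allows, also after adjustment over the 6. Control replicate 1, highest of its group in both genes, had a ratio between those of the other control libraries.

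**Figure D2:**
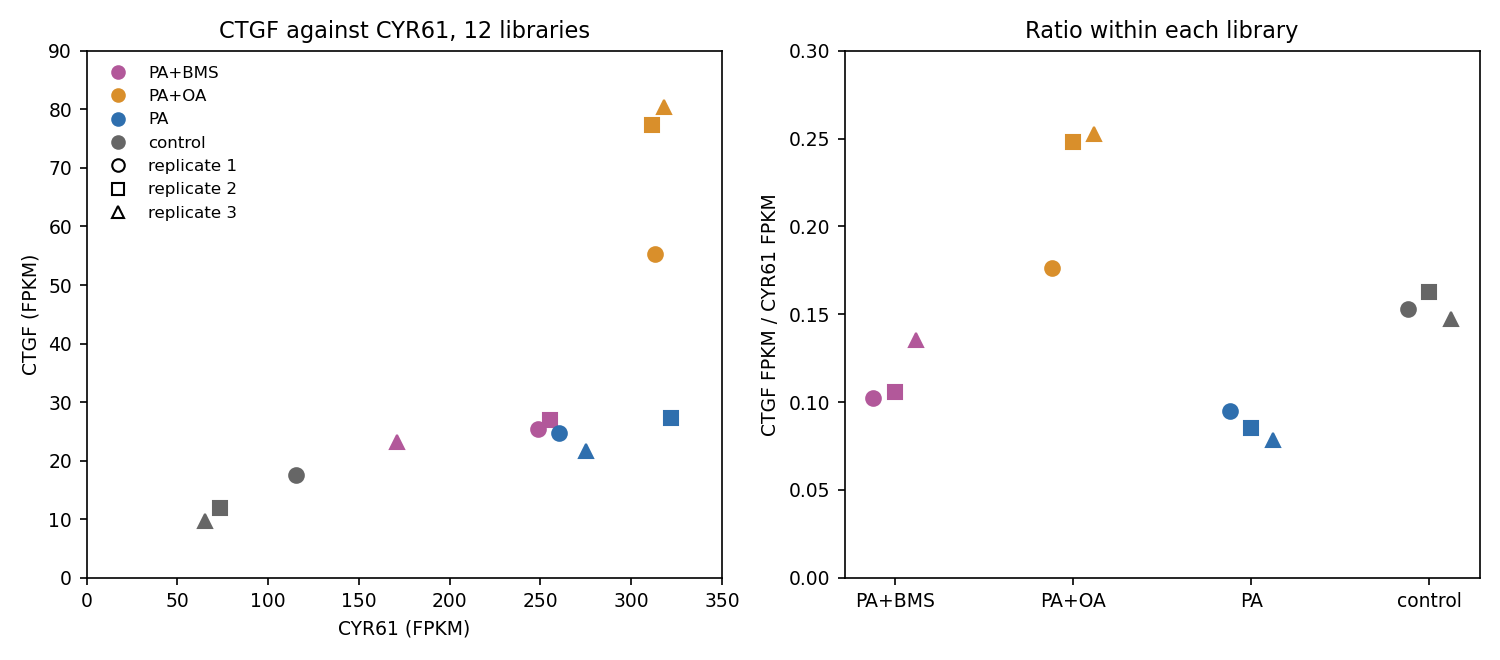
Left, CTGF against CYR61 (both FPKM) in each library; right, the ratio of their FPKM by group. Symbols are replicates. The PA and PA+OA libraries lie at like CYR61 levels, while CTGF is 55.2 to 80.5 FPKM in PA+OA and 21.6 to 27.4 FPKM in PA.

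ANKRD1 encodes a nuclear ankyrin-repeat protein known from stressed heart muscle (ENSG00000148677, chromosome 10, 90912096 to 90921276, minus strand). It had 1.79, 1.42 and 1.60 FPKM in PA+BMS, 1.40, 2.18 and 2.03 FPKM in PA+OA, 1.21, 1.62 and 1.07 FPKM in PA and 2.83, 1.0 and 1.70 FPKM in control. The groups overlapped throughout, and the widest spread was within control. Each library held only 35 to 109 reads of the gene, and counting error alone gave 95% intervals of 2.32 to 3.41 FPKM in control replicate 1 and 0.697 to 1.39 FPKM in control replicate 2, which do not meet. No comparison passed the test, and the difference in PA against control was -0.26, with a 95% interval of -0.71 to 0.18 (adjusted p = 0.316). A rise of the size seen in CYR61 lies outside that interval.

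AXL encodes a receptor tyrosine kinase of the TAM family whose ligand is GAS6 (ENSG00000167601, chromosome 19, 41219203 to 41261766, plus strand). It had 26.6, 28.1 and 36.5 FPKM in PA+BMS, 35.0, 32.7 and 34.7 FPKM in PA+OA, 43.1, 35.7 and 35.6 FPKM in PA and 35.8, 30.8 and 40.2 FPKM in control. The difference was 0.10 in PA against control, with a 95% interval of -0.21 to 0.41 (adjusted p = 0.592). It was -0.32 in PA+BMS against PA (adjusted p = 0.0684), where replicate 3 of PA+BMS lay among the PA values and the other two below them. Without PA+BMS replicate 3 the difference was -0.46 (adjusted p = 0.0308), and it was -0.06 with the GC and length trend removed (adjusted p = 0.778).

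YAP1 encodes YAP (ENSG00000137693, chromosome 11, 102110461 to 102233423, plus strand). It had 97.0, 93.1 and 135 FPKM in PA+BMS, 36.1, 64.0 and 74.2 FPKM in PA+OA, 60.9, 56.8 and 66.8 FPKM in PA and 93.8, 120 and 114 FPKM in control. PA+BMS and control shared one range, PA+OA and PA shared a lower one, and the ranges did not meet. YAP1 fell in PA against control by 0.82 on the log2 scale (SE 0.23, adjusted p = 0.0265), to 0.562 of the control mean, and in PA+OA against control by 0.96 (adjusted p = 0.00884). It rose in PA+BMS against PA by 0.79 (SE 0.23, adjusted p = 0.0165), 1.76-fold by means, and in PA+BMS against PA+OA by 0.93 (adjusted p = 0.00985). The difference in PA+BMS against control was -0.03, with a 95% interval of -0.54 to 0.48 (adjusted p = 0.957), and in PA+OA against PA it was -0.14 (adjusted p = 0.822). Where YAP1 was lowest, in PA and PA+OA, CYR61 was highest.

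The levels of YAP1 followed the first component of the libraries. PA+BMS replicate 3, at one end of the component, had the highest YAP1 level and PA+OA replicate 1, at the other end, the lowest. YAP1 transcripts have 43.5% GC, beside 50.3% in CYR61, 51.5% in CTGF, 48.8% in AMOTL1 and 43.3% in ANKRD1. Over the 12 libraries YAP1 had a Pearson correlation of 0.978 with AMOTL1 and of 0.08 with ANKRD1, a gene of few reads. With WWTR1 (40.9% GC) it was 0.625 and with LATS2 (51.8%) 0.571. The correlation was negative with CYR61 (-0.700), CTGF (-0.613), AJUBA (-0.521, 52.8% GC), AMOTL2 (-0.425, 56.7%) and AXL (-0.204, 53.9%). Whether GC content had a part in the YAP1 levels was not tested. After removal of the GC and length trend, YAP1 changed by -0.53 in PA against control (adjusted p = 0.0380), 0.41 in PA+BMS against PA (adjusted p = 0.0773, no longer called) and 0.59 in PA+BMS against PA+OA (adjusted p = 0.0154). The call in PA against control was lost without PA replicate 1, PA replicate 2, control replicate 2 or control replicate 3 (adjusted p of 0.0705 to 0.103). The call in PA+BMS against PA was lost without PA+BMS replicate 3 (0.62, adjusted p = 0.0683) or PA replicate 2 (0.74, adjusted p = 0.0577). The calls of YAP1 in PA+OA against control and in PA+BMS against PA+OA held without any 1 library, but that in PA+BMS against PA+OA was lost when only those groups were fitted (adjusted p = 0.0544).

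WWTR1 encodes TAZ, the paralogue of YAP (ENSG00000018408, chromosome 3, 149517235 to 149736714, minus strand). It had 6.10, 5.65 and 6.71 FPKM in PA+BMS, 4.03, 5.16 and 5.86 FPKM in PA+OA, 4.38, 4.21 and 4.42 FPKM in PA and 3.79, 5.05 and 5.37 FPKM in control. PA+BMS stood above PA and control in all libraries. Per length, WWTR1 transcripts were fewer than YAP1 transcripts in all 12 libraries, with a YAP1 to WWTR1 ratio of FPKM between 8.95 and 24.8. WWTR1 rose in PA+BMS against PA by 0.42 (SE 0.14, adjusted p = 0.0235), 1.42-fold by means, but the call was lost without PA+BMS replicate 3, PA replicate 1 or PA replicate 2 (adjusted p of 0.0536 to 0.0765). WWTR1 is the gene of lowest GC content of the 10, at 40.9%. The difference turned to -0.089 with the GC and length trend removed (adjusted p = 0.468). The difference in PA against control, -0.09 (adjusted p = 0.602), turned to 0.31 with the trend removed (adjusted p = 0.0343). In that fit it was 0.42 in PA+OA against control (adjusted p = 0.00317).

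**Figure D3:**
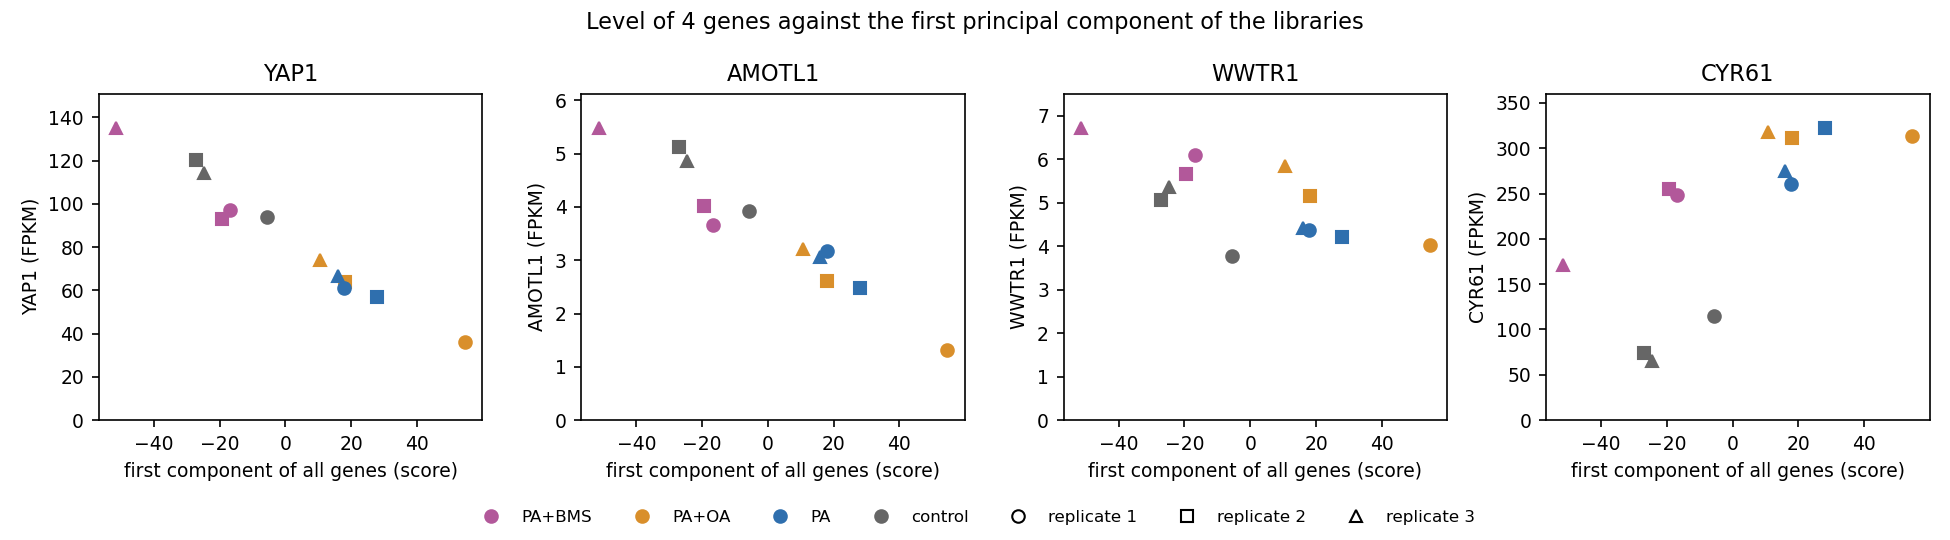
FPKM of YAP1, AMOTL1, WWTR1 and CYR61 (vertical axes, from 0) against each library's score on the first principal component of all tested genes (horizontal axes). Colours are groups and symbols replicates. YAP1 and AMOTL1 run down along the component over all 12 libraries, whereas PA+BMS replicates 1 and 2 have scores within the range of the control libraries (-27.1 to -5.70) and CYR61 levels of 248 and 255 FPKM, against 65.2 to 115 FPKM in control.

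LATS2 encodes a kinase that phosphorylates YAP and TAZ and is itself a YAP target (ENSG00000150457, chromosome 13, 20973032 to 21061547, minus strand). It had 14.1, 14.9 and 16.8 FPKM in PA+BMS, 7.40, 13.9 and 15.8 FPKM in PA+OA, 12.2, 10.3 and 11.5 FPKM in PA and 11.6, 11.4 and 10.2 FPKM in control. PA+OA replicate 1 was the lowest of all libraries and the other PA+OA libraries were above all PA libraries. The difference in PA+OA against PA was 0.06 over all libraries (adjusted p = 0.925), and without PA+OA replicate 1 it was 0.36 (adjusted p = 0.0446). PA+OA differed from control by 0.09 (adjusted p = 0.745), and by 0.40 without that library (adjusted p = 0.0206). PA+BMS differed from control by 0.43 (adjusted p = 0.208), and without PA+OA replicate 1 the adjusted p was 0.0110 at the same difference. In PA+BMS against PA the difference was 0.40 (adjusted p = 0.112), with all PA+BMS libraries above all PA libraries. Leaving out PA+OA replicate 1 gave an adjusted p of 0.00525 at the same difference, since the groups share their estimate of spread. That difference was also called under 5 of the 11 other settings, at 0.33 to 0.75 (adjusted p of 0.0145 to 0.0495).

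AJUBA encodes a LIM protein that binds LATS kinases and restrains them (ENSG00000129474, chromosome 14, 22971174 to 22982642, minus strand). It had 58.7, 59.5 and 57.7 FPKM in PA+BMS, 73.8, 63.2 and 55.9 FPKM in PA+OA, 60.2, 54.6 and 51.7 FPKM in PA and 68.2, 44.6 and 53.4 FPKM in control. All libraries but PA+OA replicate 1 lay within the range of control. PA differed from control by 0.02, with a 95% interval of -0.31 to 0.35 (adjusted p = 0.928), and no comparison passed the test. The difference in PA+BMS against PA was called under 3 other settings, at 0.46 with library totals set equal (adjusted p = 0.00859), 0.51 with quantile normalization (adjusted p = 0.00693) and 0.36 by voom (adjusted p = 0.0297).

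AMOTL1 and AMOTL2 encode angiomotin-like proteins, which bind YAP at cell junctions and hold it in the cytoplasm. In PA+OA cells the messenger RNA of AMOTL1 was lower and that of AMOTL2 higher than in control. AMOTL1 (ENSG00000166025, chromosome 11, 94706431 to 94876753, plus strand) had 3.66, 4.01 and 5.47 FPKM in PA+BMS, 1.31, 2.61 and 3.21 FPKM in PA+OA, 3.18, 2.48 and 3.07 FPKM in PA and 3.92, 5.12 and 4.86 FPKM in control. All PA and PA+OA libraries were below all PA+BMS and control libraries, the same order as in YAP1. AMOTL1 fell in PA+OA against control by 0.78 (SE 0.20, adjusted p = 0.0121), a call lost without control replicate 2 (adjusted p = 0.0515). PA differed from control by -0.53 (adjusted p = 0.0688), or by -0.47 after removal of that trend with GC and length (adjusted p = 0.0403). Without PA+OA replicate 1 it was -0.53 with an adjusted p of 0.0135. In PA+BMS against PA the difference was 0.45 (adjusted p = 0.0750), and without PA+OA replicate 1 its adjusted p was 0.0171. That difference was called under 4 of the 10 other settings that tested the gene, at 0.45 to 0.85 (adjusted p of 0.0271 to 0.0365). AMOTL1 rose in PA+BMS against PA+OA by 0.70 (adjusted p = 0.0163). The rise was less without PA+OA replicate 1 (0.45, adjusted p = 0.0513), without PA+BMS replicate 3 (0.56, adjusted p = 0.0691) or without both (0.31, adjusted p = 0.122). It was not called when only those groups were fitted (adjusted p = 0.0658).

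AMOTL2 (ENSG00000114019, chromosome 3, 134355874 to 134375479, minus strand) had 40.7, 41.0 and 42.1 FPKM in PA+BMS, 36.3, 45.1 and 48.2 FPKM in PA+OA, 47.0, 45.4 and 44.2 FPKM in PA and 38.8, 26.3 and 26.4 FPKM in control. All libraries given palmitate but PA+OA replicate 1 were above all control libraries, of which replicate 1 was the highest. AMOTL2 rose in PA against control by 0.58 (SE 0.15, adjusted p = 0.0190), 1.49-fold by means, and in PA+OA against control by 0.50 (adjusted p = 0.0239). Without control replicate 1 the rise in PA against control was 0.76. With the GC and length trend removed it was 0.31 (adjusted p = 0.194), and 0.31 in PA+OA against control as well (adjusted p = 0.141), neither of them called. In PA+BMS against control the rise was 0.45 (adjusted p = 0.0835). That rise was called with the trend removed (0.52, adjusted p = 0.0416) and with quantile normalization (0.64, adjusted p = 0.0348). It was also called without control replicate 1 (0.63, adjusted p = 0.0165) or PA+OA replicate 1 (0.45, adjusted p = 0.0351). AMOTL2, at 56.7%, has the highest GC content of the 10. The call in PA against control was also lost without PA replicate 1, PA replicate 2, control replicate 2 or control replicate 3 (adjusted p of 0.0598 to 0.0911), and with library totals set equal (0.31, adjusted p = 0.221), and it held under 6 of the 11 other settings. The call in PA+OA against control was lost without PA+OA replicate 2, PA+OA replicate 3, control replicate 2 or control replicate 3 (adjusted p of 0.0630 to 0.103), and it held under 5 of the 11 other settings.

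**Figure D4:**
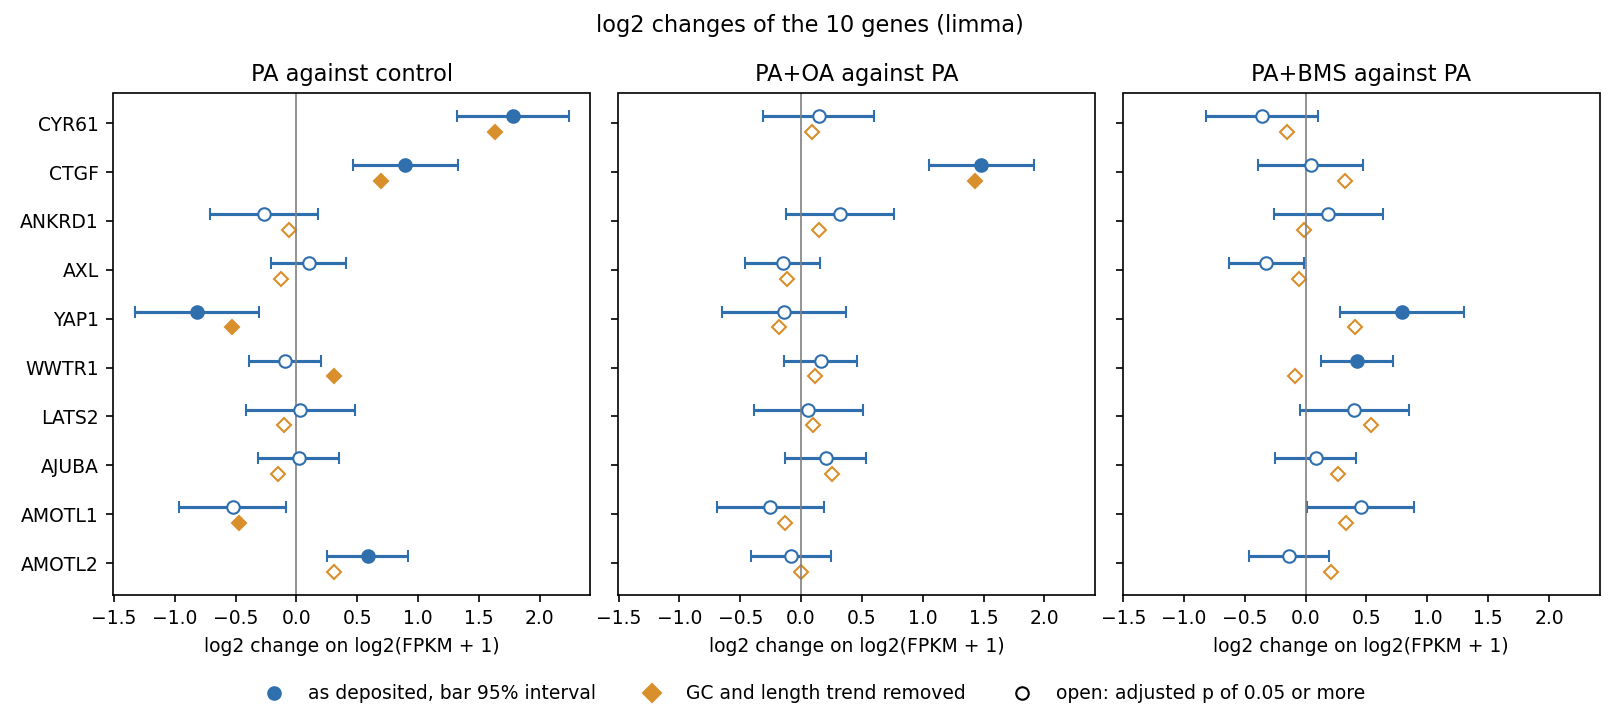
log2 change of the 10 genes (horizontal axes, on log2(FPKM + 1)) in 3 comparisons. Circles are the deposited values with 95% intervals, diamonds the values with each library's GC and length trend removed, and filled symbols have an adjusted p under 0.05. CYR61 and CTGF in PA against control and CTGF in PA+OA against PA are filled in both; WWTR1 lies on opposite sides of 0 in PA against control and in PA+BMS against PA.

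Within their groups, control replicate 1 and PA+OA replicate 1 were often at one end. Control replicate 1 was the highest control library in 6 of the 10, namely CYR61, CTGF, ANKRD1, AMOTL2, AJUBA and LATS2, beside 38.3% of all genes tested. It was the lowest in YAP1, WWTR1 and AMOTL1, beside 40.5%. It was thus at one end of its group in 9 of the 10, beside 78.8% of all genes tested. PA+OA replicate 1 was at one end in 9 of the 10 as well, beside 89.1% of all genes. Both libraries stood out over the whole table, not in these genes alone.

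Other genes of the pathway gave a background for these changes. Of 15 further reported YAP targets, 13 were tested, and in PA against control 2 were higher and 3 lower, with a median log2 change of -0.33 beside 0.03 for all genes, of which 27.6% were called. GADD45A, a stress-induced growth arrest gene, rose by 2.21 (adjusted p = 0.000359), with means of 37.5 ± 9.28 FPKM in PA and 7.31 ± 2.0 FPKM in control (SD, n = 3 each). IGFBP3, a secreted binding protein of insulin-like growth factors, fell by 0.84 (adjusted p = 0.00496), and FOXF2, a forkhead transcription factor, fell by 0.56 (adjusted p = 0.00718). Of the 13, 8 had an unadjusted p under 0.05.

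With oleate added, 1 of the 13 further targets was higher and 2 were lower in PA+OA against PA, with a median of -0.22 beside -0.0024 for all genes, of which 7.91% were called. GADD45A rose by 1.60 (adjusted p = 0.00241), to a mean of 115 ± 23.5 FPKM in PA+OA against 37.5 ± 9.28 FPKM in PA (SD, n = 3 each). ARHGEF17 fell by 0.52 (adjusted p = 0.00935), and FOXF2 fell by 0.49 (adjusted p = 0.0206). Among them 2 were higher and 6 lower in PA+BMS against PA, with a median of 0.0065 beside -0.04 for all genes and 54.5% of them called. NT5E, which encodes the ectonucleotidase CD73, rose by 0.65 (adjusted p = 0.00379), FJX1 fell by 0.62 (adjusted p = 0.00566), and IGFBP3 fell by 0.58 (adjusted p = 0.0115). With the GC and length trend removed, 1 further target was higher and 3 lower in each of the 3 comparisons. The share of all genes called in that fit was 16.4% for palmitate against control, 13.4% for the addition of oleate and 23.2% for that of BMS-309403. In it NT5E rose by 0.42 in PA+BMS against PA (adjusted p = 0.00627), ARHGEF17 fell by 0.34 in PA+OA against PA (adjusted p = 0.00604), and FOXF2 fell by 0.96 in PA against control (adjusted p = 0.00220). It ended the calls of FJX1 in PA+BMS against PA (-0.0017, adjusted p = 0.995) and of FOXF2 in PA+OA against PA (-0.49, adjusted p = 0.0530).

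**Figure D5:**
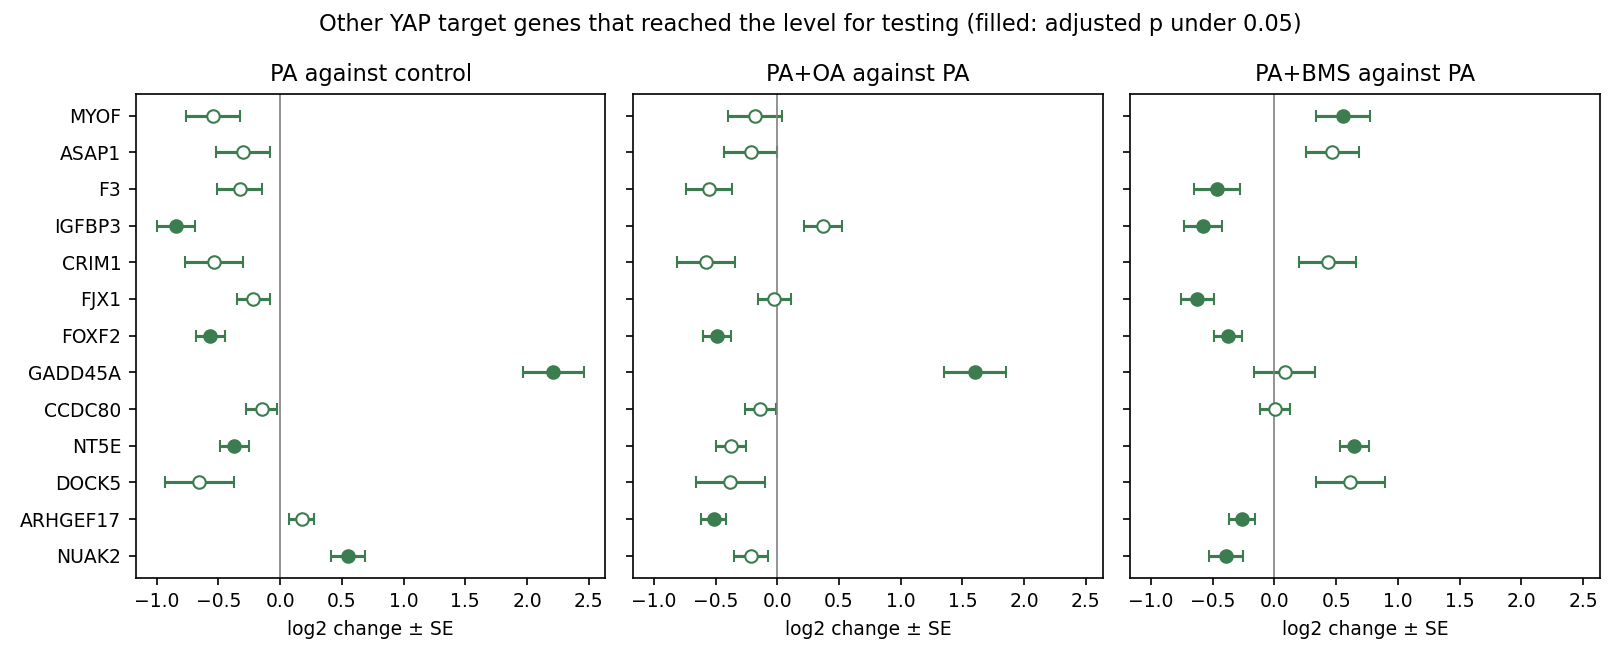
log2 change with its SE (horizontal axes) of the 13 further reported YAP targets tested, in 3 comparisons; filled symbols have an adjusted p under 0.05. GADD45A stands apart at 2.21 in PA against control and 1.60 in PA+OA against PA.

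Of 30 upstream Hippo regulators, 26 were tested. In PA against control 1 was higher and 3 were lower, with a median of -0.18, beside 27.6% of all genes called and a median of 0.03. The scaffold gene WWC2 fell by 0.81 (adjusted p = 0.00956), RASSF1, whose product binds the MST kinases, rose by 0.83 (adjusted p = 0.0152), and SLMAP, of the STRIPAK phosphatase complex, fell by 0.62 (adjusted p = 0.0235). With the trend removed, WWC2 fell by 0.46 (adjusted p = 0.00968), RASSF1 rose by 0.47 (adjusted p = 0.0250), and SLMAP was no longer called, at -0.15 (adjusted p = 0.206). With oleate added none was higher and 6 were lower in PA+OA against PA, beside 7.91% of all genes called, among them WWC1 (KIBRA), which fell by 0.66 (adjusted p = 0.00288), the kinase gene TAOK2, by 0.72 (adjusted p = 0.00911), and NF2 (merlin), by 0.53 (adjusted p = 0.0171). Given BMS-309403, 15 were higher and 5 lower in PA+BMS against PA, with a median of 0.42, beside 54.5% of all genes called and a median of -0.04. Once the GC and length trend was taken out, 3 were higher and 2 lower, with a median of 0.07, beside 23.2% and 0.0055 for all genes. In that comparison WTIP, a relative of AJUBA, fell by 0.84 (adjusted p = 0.00356), WWC1 fell by 0.57 (adjusted p = 0.00390), and TAOK3 rose by 0.65 (adjusted p = 0.00671). With the trend removed WWC1 fell by 0.37 (adjusted p = 0.0184) and TAOK3 rose by 0.26 (adjusted p = 0.0367). With both outlying libraries left out, 7 regulators were higher and 10 lower in PA against control, beside 57.6% of all genes called. In PA+OA against PA, 2 were then higher and 10 lower, beside 25.7%, and their median was 0.07 in place of -0.06. With the trend removed, 1 was higher and 6 lower there, beside 13.4%. In PA+BMS against PA, 12 were higher and 7 lower without both libraries, beside 56.1%.

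Of the TEAD factors and their VGLL cofactors, 6 of 8 were tested. VGLL3 fell by 0.67 in PA against control (adjusted p = 0.0310), where 27.6% of all genes were called, and was no longer called with the trend removed, at -0.21 (adjusted p = 0.182). In PA+OA against PA none of the 6 was called by limma on the deposited values or by voom on the recovered reads, and 1 had an unadjusted p under 0.05 by limma. TEAD4 was called there at -0.29 with the trend removed (adjusted p = 0.0430) and at -0.50 without both outlying libraries (adjusted p = 0.00616), beside -0.29 in the deposited values (adjusted p = 0.366). There were 5 calls in PA+BMS against PA, beside 54.5% of all genes, where TEAD4 fell by 0.67 (adjusted p = 0.00911), TEAD2 fell by 0.67 (adjusted p = 0.0125), TEAD1 rose by 0.90 (adjusted p = 0.0273), and 2 in all were higher and 3 lower. With the GC and length trend removed none of the 6 was called there, and 1 had an unadjusted p under 0.05. TEAD4 was the TEAD gene with the highest level per length, at 40.8 ± 2.87 FPKM in PA+BMS, 54.4 ± 15.2 in PA+OA, 65.4 ± 6.85 in PA and 48.1 ± 3.10 in control (SD, n = 3 each).

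CYR61 and CTGF were also set beside the other CCN genes, of which 2 of 4 were tested. NOV (CCN3) fell by 0.75 in PA against control (adjusted p = 0.00693) and rose by 0.60 in PA+BMS against PA (adjusted p = 0.00899). WISP2 (CCN5) fell by 1.22 in PA+BMS against PA (adjusted p = 0.00503), to 48.6 ± 13.2 FPKM in PA+BMS against 112 ± 11.01 FPKM in PA (SD, n = 3 each). Of the AXL partners, GAS6, its ligand, stayed under 1 FPKM in all libraries and was not tested. PROS1, protein S, a ligand of the related receptors, fell by 0.75 in PA against control (adjusted p = 0.00650) and rose by 0.56 in PA+BMS against PA (adjusted p = 0.0110). Once the trend was taken out, these were -0.39 (adjusted p = 0.0176) and 0.10 (adjusted p = 0.430, no longer called). TYRO3, a receptor related to AXL, fell by 0.62 in PA+BMS against PA (adjusted p = 0.0126).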

How the data were processed

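Poly(A) RNA of the 12 HepaRG libraries was sequenced as 150 bp pairs, per the labels' protocols. CASAVA, featureCounts 1.5.0-p3 and HISAT2 2.0.5 are named, without their roles, in the submitters' processing notes. Build, annotation and strand setting: not given in the sources used here. However, the identifiers and coordinates of all 58735 genes equalled GENCODE 29 on GRCh38. No gene that overlaps a described gene reached 1 FPKM. The authors deposited FPKM per gene. FPKM times gene length gave whole reads (100% of values, tolerance 0.001), 16059128 to 19971190 per library. Library sizes implied by the FPKM departed from these sums by a factor of 0.827 to 1.14, whose origin the sources do not give. It was 1.09 to 1.14 in PA+BMS, 0.827 to 1.03 in PA+OA, 0.888 to 0.976 in PA and 1.03 to 1.10 in control. Counting intervals are exact Poisson intervals and cover counting error only.

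The log2 of FPKM + 1 was tested with limma 3.58.1 in R 4.3.3, over genes that reached 1 FPKM in 3 libraries or more, with 1 coefficient per group over all 12 libraries, eBayes with a trend, Benjamini-Hochberg adjustment over all genes tested and a threshold of 0.05, two-sided. Fold changes on this scale understate the change of low genes. Ratios of means are of FPKM. Alternatives were no filter, a filter at 5 FPKM, a pseudocount of 0.1, a replicate block, equal library totals, median-of-ratios scaling, quantile normalization, a fit of only the 2 groups compared, voom on the recovered reads, natural splines (5 degrees of freedom) on GC content and gene length removed per library, and leaving out each library or PA+OA replicate 1 together with PA+BMS replicate 3. The procedure was also run on simulated reads, drawn independently for each gene and without the first component that these libraries share. That run therefore gives no error rate for these data. Median-of-ratios scaling left the calls over all genes almost unchanged (3271 beside 3272 in PA against control), so it adds little as an alternative. In no pair of replicates did the reads agree within sampling noise (chi-square per gene 3.63 to 74.8 over 12 pairs).

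The 10 genes and the gene lists were chosen with earlier results of these data known. Beside the 10 genes, the text names the 3 called genes of smallest p in each list and comparison, and the 3 protein-coding genes most like CYR61, CTGF, YAP1 and WWTR1 by Pearson correlation. GAS6 and the markers ALB, FABP1, KRT7, LRAT, CDH5 and CSF1R were chosen for naming once their values were known. Figures were drawn with matplotlib 3.10.9.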

Additional observations from a re-analysis of the deposited data

How the results depend on the processing

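Of the changes of single genes over all comparisons and alternatives, 1241 kept their side of the threshold. These kept their direction too, or were uncalled and changed sign by a shift under 1 SE. Another 41 passed the threshold only under the alternative and 44 lost it. A further 40, not called, changed sign by a shift of 1 SE or more, and 2 reversed sign with a call in 1 of the 2 fits. Both reversals were WWTR1 with the GC and length trend removed, 0.31 in PA against control and -0.089 in PA+BMS against PA; the cause was not tested. Of the 10 genes, the number called in PA+BMS against PA was 2 (54.5% of all genes were called), and it was 4 with a replicate block (59.7%), 0 with no filter (14.4%), 5 with library totals set equal (48.8%), 4 with quantile normalization (47.8%), 4 with only the 2 groups compared (55.9%), 0 with the GC and length trend removed (23.2%), 5 with voom (49.8%) and 4 without both outlying libraries (56.1%). By limma, 3 had an unadjusted p under 0.05 in each fit that called 0. In PA against control, 4 were called (27.6% of all genes) and 2 with no filter (5.21%). In PA+OA against PA, 1 was called (7.91% of all genes) and 2 without both outlying libraries (25.7%). In PA+BMS against PA+OA, 3 were called (49.6% of all genes) and 1 with only the 2 groups compared (17.4%). Leaving out 1 library gave 1 to 5 in PA against control, where 798 to 5348 of all genes were called. It gave 1 to 2 in PA+OA against PA (465 to 1900 of all genes) and 0 to 4 in PA+BMS against PA (3698 to 7402). Against control it gave 3 to 6 in PA+OA (2474 to 5008) and 1 to 4 in PA+BMS (648 to 2323). In PA+BMS against PA+OA it gave 2 to 4 (3041 to 6240). These fits tested 11729 to 11802 genes.

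Over all groups the replicate numbers paired the libraries only in part. Of 18 same-numbered pairs, 9 had a correlation over 0.1 (-0.278 to 0.563). Of 36 best matches, each among 3 libraries, 17 had the same number. Of 3 pairs each, 2 were over 0.1 for PA+BMS with PA+OA and with control, 1 for PA with PA+BMS and with PA+OA, and none for PA with control. The block raised the share of all genes called in PA against control from 27.6% to 39.2%. For PA+OA with control all 3 pairs were over 0.1 (0.156 to 0.488), and there the block changed no call, with 5 of the 10 genes called as without it. With the replicate block, CYR61 was called in PA+BMS against PA+OA (-0.50, adjusted p = 0.0409), AMOTL1 in PA against control (-0.53, adjusted p = 0.0306) and in PA+BMS against PA (0.45, adjusted p = 0.0365), and AXL in PA+BMS against PA (-0.32, adjusted p = 0.0484). With library totals set equal, calls over all genes were 519 higher and 2905 lower in PA against control, where they had been 1518 and 1754, 4582 and 1203 in PA+BMS against PA, where they had been 2982 and 3481, 1228 and 3275 in PA+OA against control, where they had been 2075 and 2232, and 4577 and 1488 in PA+BMS against PA+OA, where they had been 2744 and 3134. The medians of all genes moved by this to -0.17 in PA+OA against control and 0.24 in PA+BMS against PA+OA. Depth limits ANKRD1 only, with 35 to 109 reads per library.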

Other observations

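The genes whose pattern over the 12 libraries was most like that of a described gene are given as a description. The 12 points share their groups, sequencing depths near each other and the GC-related first component, and neither shared function nor shared control follows from them. For CYR61 they were FBXL12 (Pearson r = 0.989), the kinase gene PIM1 (0.985) and ZNF346 (0.982). For CTGF they were ASNS, asparagine synthetase (0.982), HERPUD1, of endoplasmic reticulum-associated degradation (0.979), and NDEL1 (0.969). For YAP1 they were PPFIBP1 (0.991), BTBD7 (0.991) and TMEM30A (0.989), and for WWTR1 FEM1C (0.980), CCSAP (0.966) and APPBP2 (0.957). Between the described genes, r was 0.978 for YAP1 with AMOTL1, 0.806 for CYR61 with CTGF and 0.869 for CYR61 with AMOTL2.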
